A study of Mus musculus with 2 samples.

Results

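The genes described here are 37 genes of lipoprotein metabolism, taken from a list of names drawn up for their function: apolipoproteins, genes of particle assembly, lipases with their partners and angiopoietin-like (Angptl) genes, lipoprotein receptors, and genes that remodel high-density lipoprotein (HDL). Of these, 36 were found among the 18194 genes with a named probe set on the array, and Lipc was not analysed here. Liver RNA was compared between 2 inbred strains at 19 weeks of age, FLS (fatty liver Shionogi) mice, the model of non-alcoholic steatohepatitis (NASH), and DS (dd Shionogi) mice, which served as reference and as a model of simple steatosis. FLS and DS derive from separate lines of 1 outbred colony, and both were fed the same standard pellet diet without any treatment before the livers were taken. RNA of 3 mice of each strain was pooled and hybridized to 1 Affymetrix mouse genome array. With 1 array a strain, differences could not be checked in replicates, and no test was made. Strain background and disease state cannot be told apart in this design.

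The liver packs triacylglycerol and cholesterol with apolipoprotein B into very-low-density lipoprotein (VLDL), which the microsomal triglyceride transfer protein loads with lipid in the endoplasmic reticulum. In the capillaries, lipoprotein lipase removes the triacylglycerol, with apolipoproteins C-II and A-V as activators and apolipoprotein C-III and Angptl proteins as inhibitors. Remnants return to the liver through receptors that recognize apolipoproteins E and B. HDL is formed around apolipoprotein A-I by lipid export from cells and then carries cholesterol back to the liver.

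Each gene was represented by its brightest probe set, by the mean signal intensity of both pools, on the linear scale that the authors deposited, and counted as measured if this signal exceeded 500 in at least 1 pool. By this limit 29 of the 36 genes were measured, and the fold change is the FLS/DS ratio of the 2 signals. Just inside the limit lay Sort1, at 470.5 in FLS livers and 512 in DS livers, and just outside it Angptl6, at 489.6 in FLS livers and 453 in DS livers. The median signal over all probe sets was 120.3 for FLS and 125.2 for DS livers. Hepatocyte markers were abundant in both pools, with 9 of 9 on the array measured and ratios from 1.00 to 1.35. Signals of different probe sets depend on their oligonucleotides and are not compared with each other. Where signals of cell type markers are summed, bright probe sets weigh most. In liver tissue, fewer cells of a type and less RNA per cell cannot be told apart.

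Most of the lipoprotein genes, like most measured genes, had nearly equal signals in FLS and DS livers. Of the 29 measured genes, 21 (72.4%) had a ratio within 1.2-fold of 1, close to the 63.6% of all 5076 measured genes, and 10 of the 21 were apolipoproteins with very bright probe sets. Only Lpl and Angptl8, both of the lipase group, reached 2-fold in favour of FLS livers, and this held under each of 4 other scalings of the arrays. These are 2 of 29 genes, against 2.29% of all measured genes. None was at least 2-fold lower, against 1.77% of all measured genes. At a limit of 1.5-fold, Tm6sf2 joined Lpl and Angptl8 among the higher genes, a class that held 6.11% of all measured genes. Apoa4 was the single lower gene at this limit, in a class that held 4.49% of all measured genes. Tm6sf2 fell short of 1.5-fold under quantile normalization, and Apoa4 did so under quantile normalization, median centring, division by Actb and an offset of 50. On the log2 scale, the median ratio was 0.016 over the 29 genes and 0.040 over all measured genes.

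**Figure D1:**
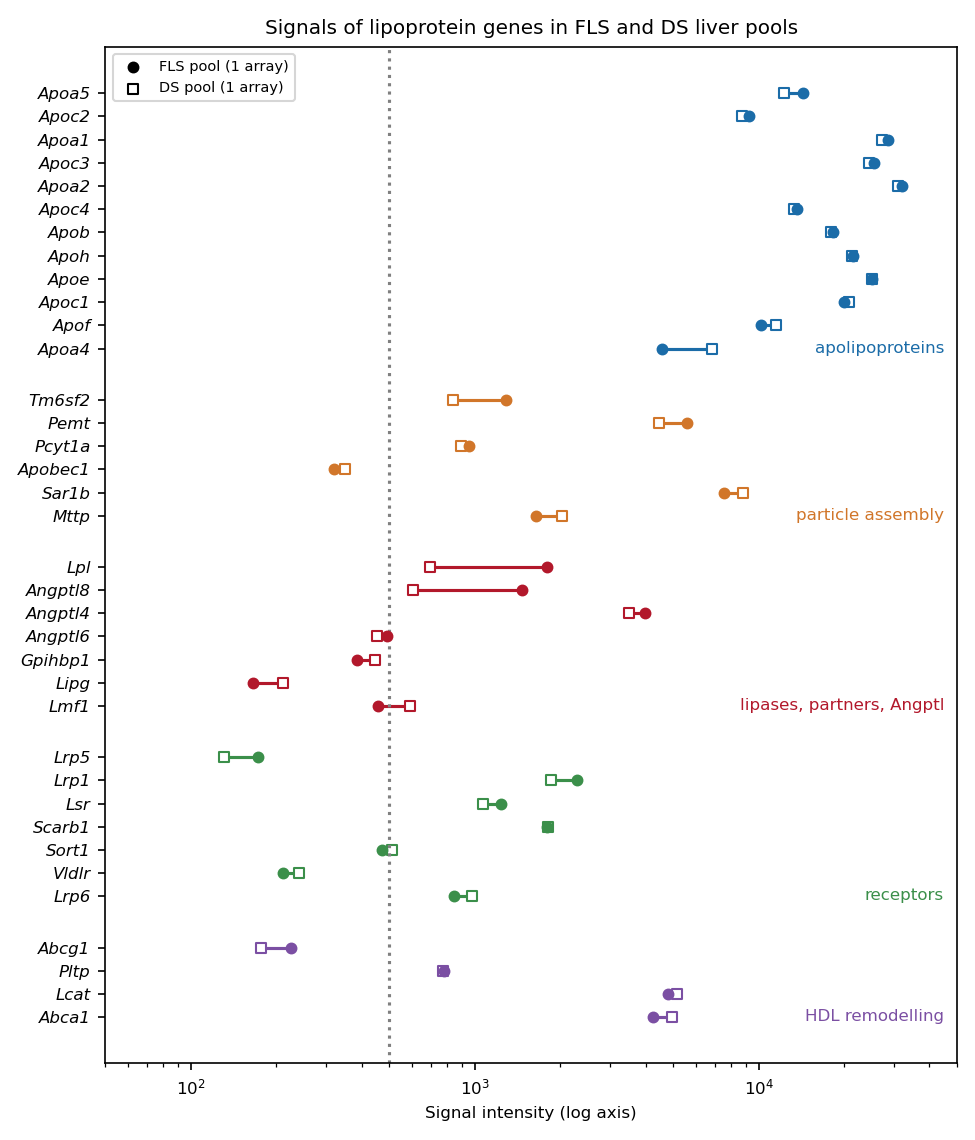
Signal intensity (log axis) of the 36 lipoprotein genes in the FLS pool (filled circles) and the DS pool (open squares), 1 array each, grouped by role and ordered by fold change within a group, with a dotted line at 500. The pair of symbols lies far apart for Lpl (1799 and 698) and Angptl8 (1462 and 606), while most apolipoproteins have overlapping symbols.

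Lpl encodes lipoprotein lipase, the enzyme that hydrolyses the triacylglycerol of circulating VLDL and chylomicrons. Its signal was 1799 in FLS livers and 698 in DS livers. Its fold change of 2.58 ranked 60 from the top among the 5076 measured genes. A second probe set, below 500 in both pools, had signals of 450.5 and 231 and a fold change of 1.95. Both probe sets of Lpl were thus higher in FLS livers, and over the scalings the fold change of the first ranged from 2.54 to 2.97. Healthy adult hepatocytes are known to make little Lpl, while adipocytes, muscle and macrophages make much of it. Adipocyte markers were not measured in either pool (0 of 3 on the array), with Adipoq at 60.7 in FLS livers and 63.4 in DS livers, below the median of either array. Of 4 markers of skeletal and heart muscle none was measured, and the highest signal among them was 213. Of 10 markers of Kupffer cells and macrophages, 8 were measured. Over all 10, the summed signal was 6659 in FLS livers and 8236 in DS livers, and 8 of 10 had a ratio below 1. Of the measured ones, Adgre1, Clec4f, Vsig4 and C1qc passed 500 in DS livers alone. Cd68, not measured, and C1qa had ratios of 1.26 and 1.04. By histology, the paper found mild phagocytic infiltration in most FLS livers and in none of the DS livers. Over 7 stellate cell markers, 4 of them measured, the summed signal was 12740.2 in FLS livers and 9716 in DS livers, a ratio of 1.31. Of the 7, 2 had a ratio below 1, and much of the sum came from Dcn, at 6550 in FLS livers and 4770 in DS livers. The part of these cells in the difference of Lpl was not tested.

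Angptl8, listed in the array's annotation as Gm6484, encodes a secreted protein that inhibits lipoprotein lipase and is known to be induced by feeding. Its single probe set had a signal of 1462 in FLS livers and 606 in DS livers. The fold change was 2.41, with values from 2.37 to 2.78 over the scalings, and ranked 69 from the top. The study had named this gene among its candidates because of its ratio on these same arrays, so the value is no independent evidence. Angptl4, an inhibitor of lipoprotein lipase that rises in fasting, had a signal of 3974 in FLS livers and 3503 in DS livers, a ratio of 1.13. Angptl6, another liver-secreted relative, had a ratio of 1.08 with both signals below 500. The higher signal of Angptl8 thus had no counterpart of like size in these relatives.

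Of Lmf1 and Gpihbp1, the partners of lipoprotein lipase, only Lmf1 was measured, and it passed the signal limit in DS livers alone. A gene that enters in this way must have a ratio below 1, so no direction is drawn for the partners. Lmf1, a chaperone of the endoplasmic reticulum that lipoprotein lipase needs to become active, had a signal of 458 in FLS livers and 590.3 in DS livers, a ratio of 0.775. Gpihbp1, the endothelial protein that carries lipoprotein lipase to the capillary wall, was not measured, with 386 and 446, a ratio of 0.865. Endothelial lipase (Lipg), which acts mainly on HDL phospholipid, was not measured either, with 166 in FLS livers and 211 in DS livers. All 3 probe sets of Lipg had a ratio below 1, from 0.704 to 0.849, and the dimmest of them had signals of 104 and 123, below the array medians. Markers of liver endothelium, 9 on the array and 5 measured, had a summed signal of 7638 in FLS livers and 6929 in DS livers, and 3 of 9 had a ratio below 1. Lmf1, Gpihbp1 and Lipg kept ratios below 1 under each of the 4 other scalings, though Gpihbp1 came to 0.997 under division by Actb. None of these genes reached a 1.5-fold difference, which is no call in either direction. With 4 measured genes, the median log2 ratio of the lipase group was 0.73, but over its 7 genes without a signal limit it was 0.11.

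The promoter of Angptl8 is shown because it is the gene past 2-fold with an entry in the RefSeq sequence table of the mouse reference assembly, where 17 of the 37 genes matched. It covers the 250 bases before the transcription start of the reference strain, which need not equal the sequence of FLS or DS mice, at chr9:21835260-21835509 of GRCm38.p6 on the plus strand. In all, 6 short motifs were searched on both strands of this window, the TATA box (TATAAA), the CCAAT box (CCAAT), the nuclear receptor half-site (AGGTCA), a core of the site of hepatocyte nuclear factor 4 (CAAAGNNCA), the E-box (CACGTG) and a sterol response element (TCACNCCAC). Capitals mark matches, and this window held no match.
Angptl8: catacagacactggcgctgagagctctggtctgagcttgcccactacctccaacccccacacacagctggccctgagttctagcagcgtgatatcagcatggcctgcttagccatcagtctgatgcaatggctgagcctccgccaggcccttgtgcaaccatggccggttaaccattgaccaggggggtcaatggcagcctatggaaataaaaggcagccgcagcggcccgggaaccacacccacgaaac

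**Figure D2:**
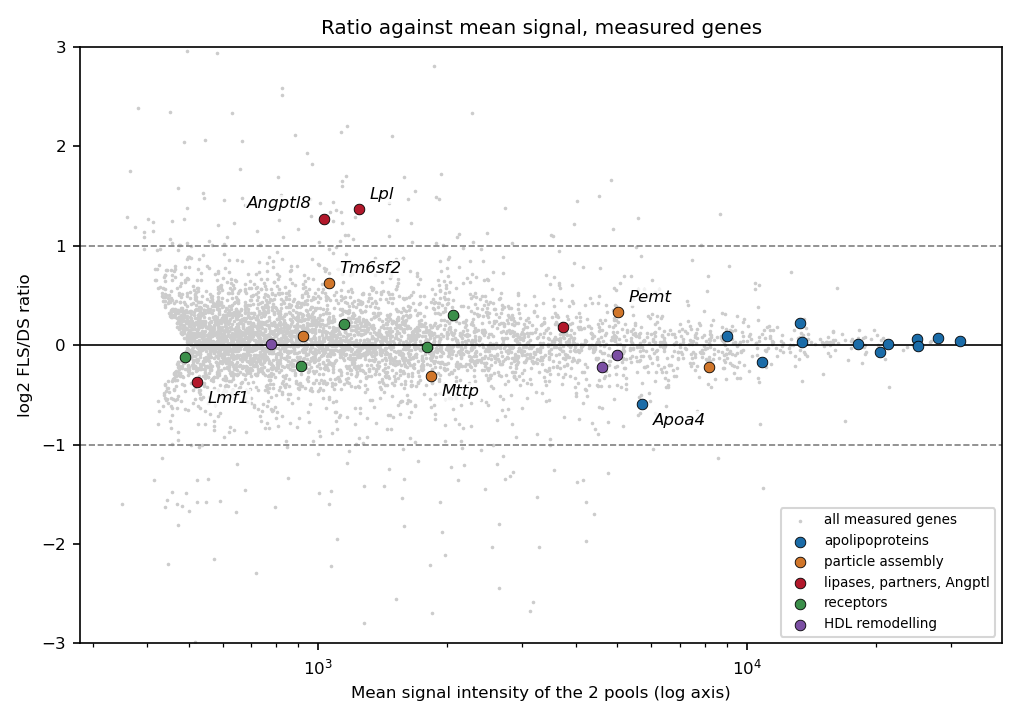
Log2 FLS/DS ratio against the mean signal intensity of both pools (log axis) for the 5076 measured genes (grey) and the 29 measured lipoprotein genes (coloured by role), with dashed lines at 2-fold and without 21 genes whose log2 ratio lies beyond 3. Lpl and Angptl8 lie above the upper line at log2 ratios of 1.37 and 1.27, and the apolipoproteins apart from Apoa4 lie close to the zero line at the right.

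The apolipoproteins, the protein shell of lipoprotein particles, were all measured, and 11 of 12 lay within 1.2-fold. Apob, the structural protein of VLDL, had a signal of 18255 in FLS livers and 18057 in DS livers, a ratio of 1.01. Apoa1, the main protein of HDL, had 28679.6 and 27243, a ratio of 1.05, and its 4 probe sets ranged from 1.04 to 1.06. Apoa2, the second protein of HDL, had a ratio of 1.03 and Apoe, the ligand of remnant receptors, of 0.998. Array signals for the main structural proteins of VLDL and HDL thus differed little between the pools, on very bright probe sets. The genes of the small exchangeable proteins were as close, with ratios of 0.956 for Apoc1, 1.06 for the lipase activator Apoc2, 1.05 for the lipase inhibitor Apoc3 and 1.02 for Apoc4. RefSeq lists a readthrough transcript that joins Apoc4 and Apoc2, so their probe sets may not be independent. Apoh, a plasma glycoprotein that binds phospholipid, had a ratio of 1.01. Apof, an inhibitor of lipid transfer between particles, had a signal of 10196 in FLS livers and 11501 in DS livers, a ratio of 0.887. Apoa5, the activator of triacylglycerol clearance, had the highest ratio of the group, 1.17, with signals of 14375.5 and 12329.7. Under division by Actb, whose ratio was 0.867, every ratio is 0.21 higher on the log2 scale, and 7 of the 12 apolipoproteins stayed within 1.2-fold.

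These small ratios belong to bright probe sets. The signals of 10 measured lipoprotein genes, all of them apolipoproteins, had a mean above 10000, and the highest signal on the array was 32018. Of 143 genes with such signals, 89.5% lay within 1.2-fold, compared with 69.1% of 1244 genes with means between 2000 and 10000 and 60.8% of 3689 genes below. The lipoprotein genes had 10 of 10 within 1.2-fold in the brightest class, 5 of 8 (62.5%) in the middle and 6 of 11 (54.5%) in the dimmest. Outside the brightest class, their share was thus no higher than that of all genes. Whether these probe sets were near saturation was not tested.

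Apoa4 stood apart from the other apolipoproteins. It encodes apolipoprotein A-IV, a protein of chylomicrons and HDL made in intestine and, in mice, also in liver. Its signal was 4559 in FLS livers and 6859 in DS livers, a ratio of 0.665. The second probe set had 2919.99 in FLS livers and 4778 in DS livers, a ratio of 0.611, so both were lower in FLS livers. Over the scalings the ratio of the first ranged from 0.662 to 0.766. Apoa4 lies on chromosome 9 in a cluster with Apoa1, Apoc3 and Apoa5, which had ratios of 1.05, 1.05 and 1.17. Of the genes beside this cluster, Sik3, a protein kinase, had a ratio of 0.733 and Zpr1, a zinc finger protein, of 0.952. In the other cluster, on chromosome 7, the neighbours Apoc2, Apoc4, Apoc1 and Apoe had ratios between 0.956 and 1.06. A low ratio was thus seen for 1 of the 4 genes of the first cluster and for none of the second.

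**Figure D3:**
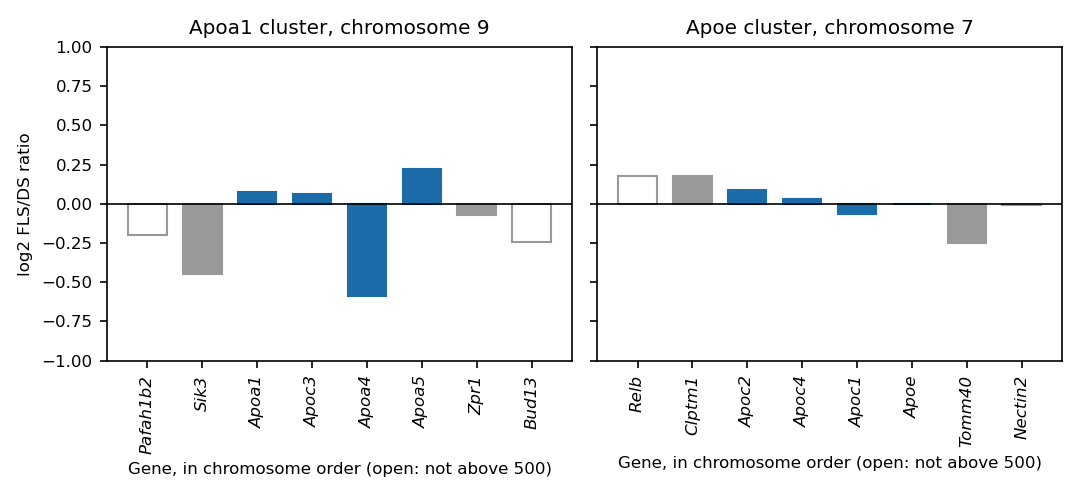
Log2 FLS/DS ratio of the genes of both apolipoprotein clusters (blue) and of the 2 protein-coding genes on either side (grey) in chromosome order, with open bars for genes at or below 500 in both pools. Apoa4 has a bar down to -0.59 between Apoc3 at 0.06 and Apoa5 at 0.22, and the apolipoprotein genes of the Apoe cluster stay near 0.

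The promoters of Apoa4 and of the cluster genes Apoa1 and Apoa5 are shown because the 3 genes are neighbours with unlike ratios. They are the 250 bases before each start in GRCm38.p6, all on the plus strand, at chr9:46240594-46240843 for Apoa4, chr9:46228380-46228629 for Apoa1 and chr9:46268358-46268607 for Apoa5. Capitals mark matches to the motifs named for Angptl8. Apoa4 held the core of the hepatocyte nuclear factor 4 site, which begins 182 bases before the start, as do windows of 5.79% of 19827 genes. Apoa5 held an E-box, found in 5.57% of these windows, and a TATA box, found in 14.9%, whereas Apoa1 held none of the 6 motifs. The CCAAT box (34.4% of windows), the nuclear receptor half-site (14.5%) and the sterol response element (1.02%) were not found in these 3 windows. A match is a likeness of letters and no evidence of binding.
Apoa4: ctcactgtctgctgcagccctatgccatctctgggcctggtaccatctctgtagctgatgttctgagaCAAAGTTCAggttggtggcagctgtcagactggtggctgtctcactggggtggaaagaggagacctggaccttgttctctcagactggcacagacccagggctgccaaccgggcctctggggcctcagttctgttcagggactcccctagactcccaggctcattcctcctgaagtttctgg
Apoa1: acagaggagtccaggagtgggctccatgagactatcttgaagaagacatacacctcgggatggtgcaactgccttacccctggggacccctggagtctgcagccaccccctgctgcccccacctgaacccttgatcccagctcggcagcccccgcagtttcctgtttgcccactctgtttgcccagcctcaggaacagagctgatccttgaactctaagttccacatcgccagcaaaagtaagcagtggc
Apoa5: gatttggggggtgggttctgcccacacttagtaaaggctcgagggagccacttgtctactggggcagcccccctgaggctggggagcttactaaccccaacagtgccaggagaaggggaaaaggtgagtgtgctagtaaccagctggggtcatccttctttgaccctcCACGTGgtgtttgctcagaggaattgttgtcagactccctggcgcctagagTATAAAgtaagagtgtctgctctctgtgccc

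Genes of particle assembly had mixed directions. Tm6sf2, a membrane protein of the endoplasmic reticulum needed to lipidate VLDL, had a signal of 1285 in FLS livers and 835 in DS livers, a ratio of 1.54 on its single probe set. Over the scalings this ratio ranged from 1.49 to 1.77. Mttp, the transfer protein that loads lipid onto apolipoprotein B, had 1640.5 in FLS livers and 2028 in DS livers. Its ratio was 0.809, and 0.821 on the second probe set. Sar1b, a small GTPase of the vesicles that carry large lipoproteins out of the endoplasmic reticulum, had 7557 and 8818, a ratio of 0.857. Both Mttp and Sar1b kept ratios below 1 under the 4 other scalings, as Tm6sf2 kept its ratio above 1. Of the assembly genes, Tm6sf2 alone passed 1.5-fold.

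Both routes to phosphatidylcholine, the phospholipid of the particle surface, are among the assembly genes. Pemt, which makes it by methylation in liver, had a signal of 5608 in FLS livers and 4447 in DS livers, a ratio of 1.26. Pcyt1a, the rate-limiting enzyme of the choline route, had 954 and 897, a ratio of 1.06. Its other 3 probe sets, all below 500, had log2 ratios from -0.15 to 0.27. Apobec1, the enzyme that edits the Apob transcript, was not measured, at 320.1 in FLS livers and 349 in DS livers. Over the 5 measured assembly genes, the log2 ratios had a median of 0.089.

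Of 7 receptor genes 5 were measured, and none reached a 1.5-fold difference. Lrp1, a remnant receptor of hepatocytes, had a signal of 2287 in FLS livers and 1853 in DS livers, a ratio of 1.23. Its second probe set, with signals of 209 and 126, had 1.66. Lsr, a lipolysis-stimulated receptor of remnants, had 1236 and 1066, a ratio of 1.16, and 0.961 on a second probe set below the array medians. Scarb1, the receptor that takes up cholesterol from HDL, had ratios of 0.991, 1.04 and 1.12 on 3 measured probe sets, on both sides of 1. Lrp6, a coreceptor of Wnt proteins with a role in lipoprotein uptake, had 845 and 979, a ratio of 0.863. Sort1, a sorting receptor that binds apolipoprotein B, had a ratio of 0.918, with 0.741 and 0.805 on 2 dimmer probe sets. All 5 ratios thus lay within 1.3-fold of 1, which is no call in either direction. Sort1 and Scarb1 exceeded 1 under division by Actb, as Scarb1 did under median centring. Vldlr, a receptor sparse in healthy liver, was not measured on any of its 6 probe sets, the brightest at 211 in FLS livers and 239.6 in DS livers. Lrp5, another Wnt coreceptor, had signals of 173 and 131, near the array medians.

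Genes of HDL remodelling differed little. Abca1, the exporter that starts HDL formation on apolipoprotein A-I, had a signal of 4263 in FLS livers and 4952 in DS livers, a ratio of 0.861. Its dimmer probe sets had 0.756 and 0.898, so all 3 were below 1. Lcat, the plasma enzyme that esterifies HDL cholesterol, had 4799 and 5156, a ratio of 0.931 that exceeded 1 under division by Actb. Pltp, which transfers phospholipid between particles, had 780.3 and 773, a ratio of 1.01. Abcg1, an exporter of cholesterol to mature HDL, was not measured, with signals of 226 and 176. No member of this group left the range within 1.2-fold among the 3 measured.

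**Figure D4:**
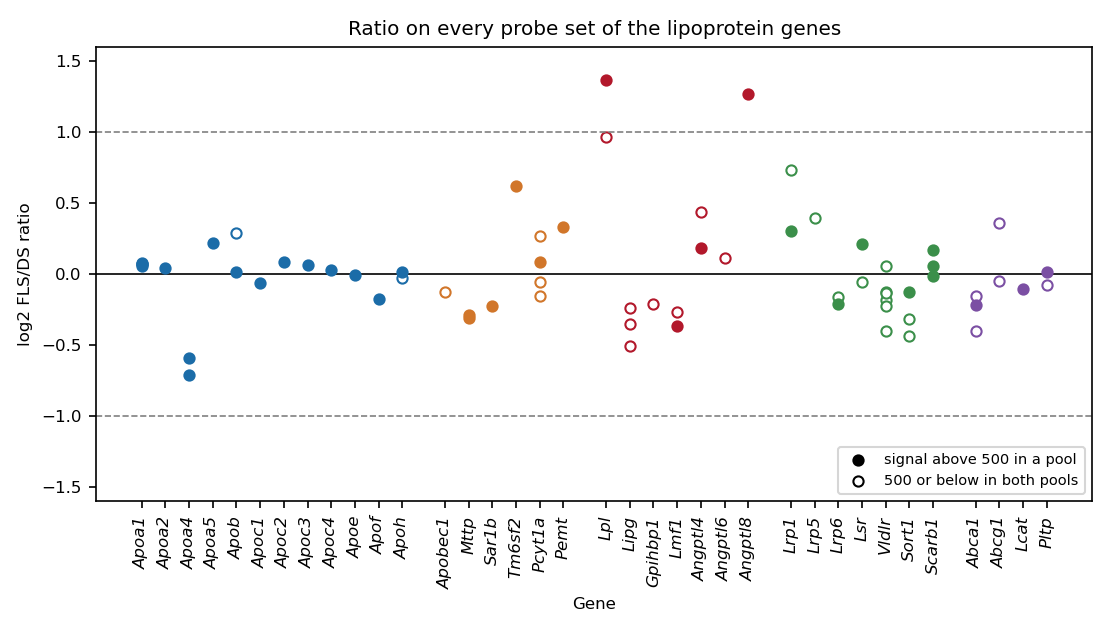
Log2 FLS/DS ratio on each of the 67 probe sets of the 36 lipoprotein genes, filled where the signal exceeded 500 in at least 1 pool and open otherwise, with dashed lines at 2-fold. Both probe sets of Lpl lie near or above 1, both of Apoa4 lie between -0.8 and -0.5, and the 4 of Apoa1 coincide.

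Probe sets of the same gene give a check of the reading, though not of the strains, because they share the RNA. Of the 36 genes, 17 had a single probe set, among them Angptl8 and Tm6sf2. In the 4 genes with more than 1 measured probe set (Apoa1, Apoa4, Mttp and Scarb1), the log2 ratios spanned at most 0.18. Probe sets at or below 500 did not enter this. They lay further off for Lpl (1.37 and 0.96) and Lrp1 (0.30 and 0.74), but close for Lrp6 (-0.21 and -0.16). Across the array, log2 ratios of measured probe sets within a gene had a pooled SD of 0.22, from 1424 genes. Besides Lpl (1.37), Angptl8 (1.27), Tm6sf2 (0.62) and Apoa4 (-0.59), the measured genes Lmf1 (-0.37), Pemt (0.33), Mttp (-0.31) and Lrp1 (0.30) had log2 ratios beyond this spread, which carries no variation between mice. These are the measured lipoprotein genes outside 1.2-fold, with 72.4% inside it, against 63.6% of all measured genes. That share rests on the 10 genes with mean signals above 10000, all inside 1.2-fold. At means from 2000 to 10000, 62.5% of the lipoprotein genes lay inside, against 69.1% of all genes. Up to 2000 the shares were 54.5% and 60.8%. Under division by Actb, Lmf1 (-0.16) and Mttp (-0.10) fell inside the spread, while others such as Apoa5 (0.43) left it. Over all measured genes, log2 ratios had an SD of 0.50 at mean signals up to 2000 and of 0.48 from 2000 to 10000.

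Around these genes, a wider list of 68 genes of lipoprotein secretion, uptake and sterol export had 60 members on the array and 40 measured. None of the 40 reached a 2-fold difference, against 2.29% of all measured genes higher and 1.77% lower. At 1.5-fold, 1 of the 40 was higher and 2 were lower in FLS livers, in classes that held 6.11% and 4.49% of all measured genes. The higher one was Gpld1, a phospholipase carried on HDL, at 4218 in FLS livers and 2587 in DS livers, a ratio of 1.63. The lower ones were Pcsk6 and Abcg5, the latter only just past the limit. Pcsk6, a proprotein convertase, had 646 in FLS livers and 1143 in DS livers, a ratio of 0.565. Abcg5 and Abcg8 together encode the sterol exporter into bile and lie side by side in the genome. The ratio of Abcg5 was 0.666, with signals of 1818 and 2729, and that of Abcg8 was 0.676, with 1263 and 1868. Mylip, a ubiquitin ligase that degrades lipoprotein receptors, had a ratio of 1.49, with signals of 561 and 377. Pla2g12b, a secretory protein of the VLDL pathway, had a ratio of 1.44, with signals of 3459 and 2406. Over the 40 measured genes of the wider list, the log2 ratios had a median of 0.042.

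Regulators that act on lipoprotein genes were also read, 14 on the array and 11 measured. Srebf1, which encodes the lipogenic factor SREBP-1, was the single measured one past 2-fold, at 2112 in FLS livers and 6319 in DS livers, a ratio of 0.334. Nr0b2, a corepressor of nuclear receptors, had a ratio of 1.97, with signals of 2887 and 1465. Hnf4a, a main activator of apolipoprotein genes, had a ratio of 1.12, the fasting-induced Creb3l3 of 1.11 and Ppara of 0.924. The oxysterol receptor Nr1h3, which activates Abca1 and Abcg5, had signals of 1006 and 1014, a ratio of 0.992. Foxo1, an insulin-restrained factor, had a ratio of 0.791. The part of these regulators in the differences of the lipoprotein genes was not tested.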

How the data were processed

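Pooled liver RNA of 3 mice per strain was measured on 1 Affymetrix mouse genome array for FLS and 1 for DS. The authors deposited signal intensities, linear and not on a log scale, which they had summarized with the MBEI (PM-only) model and normalized. In the submitters' notes affy is named without a version. For the scaling from array to array, the method was not given in the sources used here. Of 45101 probe sets, 34958 had 1 gene symbol in the platform annotation, 932 had several and were not used, and 9211 were unnamed. Symbols were updated through Entrez numbers for 34754 probe sets with a RefSeq gene table (GRCm38.p6). Ratios were computed with no offset and no further scaling, and no test was possible with 1 array per strain, the number of which limits the precision.

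All 37 genes are accounted for, and of the wider list the 6 measured genes with the largest absolute log2 ratio were named. In the list of regulators, genes were named after their values were seen. Members, lists and motifs were chosen with earlier results of these data known. Alternatives were quantile normalization, median centring, a loess trend (fraction 0.4), division by Actb, an offset of 50, the median over probe sets, omission of _x_at and _s_at probe sets, fold limits of 1.5 and 3, signal limits of 200, 1000 or none, and the demand that both pools exceed 500. The calculations were tested on simulated signals. Promoters came from RefSeq sequences, 1 window per gene at its annotated start. Calculations ran in Python 3.11.15 with pandas 2.3.3, numpy 2.4.6 and statsmodels 0.14.6, and figures were drawn with matplotlib 3.10.9.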

Additional observations from a re-analysis of the deposited data

How the results depend on the processing

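Log2 ratios and their medians counted as moved beyond 0.22, which is the pooled SD between probe sets of a gene, and counts beyond 1.5 times. No ratio of the 36 genes moved under the 4 scalings, the offset or the median over probe sets. Median centring and division by Actb shift every log2 ratio alike and by less than 0.22 (0.21 for Actb), so neither could move one. Under division by Actb, 16 of the 29 measured genes lay within 1.2-fold, against 21 without it. When _x_at and _s_at probe sets were omitted, 1 gene (Angptl4) moved, to a probe set near background. Lpl and Angptl8 remained the 2 measured lipoprotein genes past 2-fold under every alternative apart from the fold limits. At a fold limit of 3 the number of higher genes was 0, and at 1.5 the number of lower ones was 1. In the wider list, the limit of 1.5 gave 1 higher and 2 lower of 40 measured genes, against 6.11% and 4.49% of all measured genes. The median log2 ratio of the lipase group was 1.27 without _x_at and _s_at probe sets, above 1000 and above 500 in both pools, and 0.11 at a limit of 200 or none, since few genes remain or dim ones join. That of receptors was 0.21 above 1000. Among all measured genes, 180 were at least 2-fold higher without a signal limit, 54 higher and 49 lower with both pools above 500, 310 and 228 past 1.5-fold, and 40 and 39 past 3-fold. No paired analysis was possible because each strain has 1 array.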
